A study of Mus musculus with 5 samples.

Results

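The matrix proteases and their inhibitors are described here in dorsal skin of *Clock* mutant and wild-type (WT) mice, through 10 genes. The genes are the matrix metalloproteinases *Mmp2*, *Mmp3*, *Mmp11* and *Mmp14*, the ADAMTS proteases *Adamts1*, *Adamts2* and *Adamts5*, and the tissue inhibitors of metalloproteinases *Timp1*, *Timp2* and *Timp3*. Members were all probe sets that the platform annotation maps to a single one of these genes. This gave 23 of the 45037 probe sets of the array that are not controls, and they covered 9 of the 10 genes. *Adamts2* had no such probe set and was not analysed here. RNA came from the dorsal skin of 5 mice at postnatal day 23, with 1 Affymetrix array per mouse. The 2 *Clock* mutant mice and their 3 WT littermates were all staged by histology as telogen, the resting phase of the hair cycle. *Clock* mutant replicate 1 was male, and *Clock* mutant replicate 2 and all 3 WT mice were female. The *Clock* mutation lowers the transcriptional activity of CLOCK, the partner of BMAL1, in every tissue, and the study keeps its *Clock* mice in the C57BL/6J background. The labels give neither the zygosity of these mice nor the time of day of collection. The question behind the comparison is how expression differs before the hair cycle delay of the mutants can be seen, with both genotypes staged as telogen. Genes of the growing hair follicle were nonetheless high on the array of *Clock* mutant replicate 1, as given below, so the arrays may not be matched in stage.

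Matrix metalloproteinases (MMPs) and ADAMTS enzymes are zinc-dependent proteases that cut collagens, proteoglycans and other matrix proteins, and most are made as inactive precursors. MMP14 sits in the cell membrane, and together with TIMP2 it binds the MMP2 precursor and activates it at the cell surface. TIMPs block MMPs, and TIMP3, which stays bound to the matrix, also blocks ADAMTS5 and related aggrecan-cutting enzymes. In skin these genes are expressed largely by fibroblasts of the dermis, and matrix around the follicle is remodelled as hair growth starts and ends.

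Levels are given as MAS5 intensities, in the order of the replicate numbers of each genotype. Differences are on the log2 scale, mutant minus WT, as fitted by limma, with their standard error (SE). The p-values rest on the spread between mice of the same genotype, moderated by limma over all tested probe sets. In the mutant group this spread includes any difference between the male and the female mouse. A fit that leaves out a mutant mouse holds only 1 mutant, so that its spread comes from the WT mice alone (moderated over all probe sets) and the lone mutant is assumed to vary as they do. Adjusted p-values are limma's, with Benjamini-Hochberg adjustment over the 27022 probe sets that passed a filter on dim signal, at an intensity of 56.7. Of the 23 member probe sets, 21 passed. The other two lay near background. *Adamts5* probe set 1456969_at had intensities of 0.871 to 17.7 over the 5 arrays, and *Timp2* probe set 1437081_at had 3.44 to 39.6, so that neither was tested. Levels of different probe sets are not compared, since each binds its target with its own strength.

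The arrays correlated at 0.973 to 0.987 over the tested probe sets. Median intensities were 106.0 to 118.1. The tissue label was met by its markers: summed intensities of 8 fibroblast genes were 126935 and 130992 in *Clock* mutant and 127530 to 138236 in WT skin, and none of the 8 passed the adjusted threshold. Of 12 marker lists, 11 had summed intensities that overlapped between the genotypes, including the growing hair follicle list described next. The exception was endothelium, with 3654 and 3419 in mutant and 3095 to 3216 in WT skin, and its part in the member values was not tested. No gene of the 12 lists passed the adjusted threshold. Overlapping sums do not show that each gene was equal. The fibroblast gene *S100a4* read 5475 and 5191 in mutant and 4089, 4050 and 4211 in WT skin (0.37, adjusted p = 0.153). Of the 8 fibroblast genes, 3 had positive and 5 had negative differences. The adipocyte gene *Cidec* was at -0.36 (adjusted p = 0.339), in a list with 1 positive and 3 negative differences. *Clock* mutant replicate 1 stood apart in some measures and not in others. Summed intensity of 8 genes of the growing hair follicle was 7503 on that array, against 1498 in *Clock* mutant replicate 2 and 602 to 1563 in WT skin, with *Krt35* under the filter. All 7 tested genes of that list had positive differences (median 2.03), and 6 were higher at an unadjusted p under 0.05 (background 4.09%). By its sum, *Clock* mutant replicate 2 lay within the WT range. At *Krt28*, *Tchh* and *Krt73*, *Clock* mutant replicate 2 also lay above every WT mouse. At *Krt25*, *Krt27*, *Krt71* and *Msx2* it lay below WT replicate 1. Its intensities there were 227, 238, 256 and 116, against 283, 273, 311 and 154. The part of these genes in the member values was not tested. The 3' to 5' intensity ratio of the pyruvate carboxylase control, which rises with shorter RNA or cDNA, was 54.1 on that array, against 27.8 in *Clock* mutant replicate 2 and 19.1 to 28.1 in WT skin. Its 5' intensity there was 40.4, below the filter, so the ratio is imprecise. The *Gapdh* ratio was 1.05 on that array, 0.988 in *Clock* mutant replicate 2 and 0.860 to 0.955 in WT skin. The *Actb* ratio of 1.21 lay within the 1.14 to 1.23 of the other 4, and the *Tfrc* ratio of 8.09 within their 7.71 to 14.3. These 2 controls therefore did not set the array apart. For *Gapdh*, and narrowly for *Actb*, both mutant arrays lay above every WT array, so that these ratios differed with genotype. The genotypes overlapped for the pyruvate carboxylase and *Tfrc* ratios. The part of the control ratios in the member values was not tested. In whole skin, fewer cells of a type and less RNA per cell cannot be told apart.

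None of the matrix protease and inhibitor probe sets passed the adjusted threshold of 0.05 by limma, and none passed with a Cyber-T style test. *Adamts5*, an aggrecan- and versican-cutting protease, had positive differences at all 3 tested probe sets, and *Timp3* had negative differences at all 4. *Timp2* was negative at all 5 tested probe sets, from -0.81 to -0.04, though 3 of them changed sign after median centring, and *Mmp14* probe sets pointed both ways. Over all tested probe sets of the array, 0.0888% passed the adjusted threshold, 0.0148% higher and 0.0740% lower. At an unadjusted p under 0.05, 9 of 21 member probe sets passed (42.9%, of 10.8% over the array). Of these, 4 were higher (background 4.09%) and 5 were lower (background 6.71%). The 9 came from only 4 genes, *Mmp14*, *Adamts5*, *Timp2* and *Timp3*, and probe sets of a gene report the same message, so that they are not separate observations. The Cyber-T style test gave 7 at that limit (6.81% over the array). Intensities of the genotypes did not overlap at 8 of 21 probe sets (38.1%, of 27.9% over the array), 4 higher (background 12.8%) and 4 lower (background 15.1%). The median log2 difference was -0.05 over the 21 member probe sets and -0.02 over all tested probe sets. It was 0.10 over 7 MMP, 0.28 over 4 ADAMTS and -0.23 over 10 TIMP probe sets. Of the ADAMTS probe sets, 3 were of *Adamts5*, while *Adamts1* was at -0.36. Of the TIMP probe sets, 5 were of *Timp2* and 4 of *Timp3*, while *Timp1* was at 0.40. These medians therefore rest on few genes. Without *Clock* mutant replicate 1 the TIMP median was -0.11 and the count of members at an unadjusted p under 0.05 was 4 of 21 (6.53% over the array), and without WT replicate 1 that count was 5 (12% over the array).

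**Figure D1:**
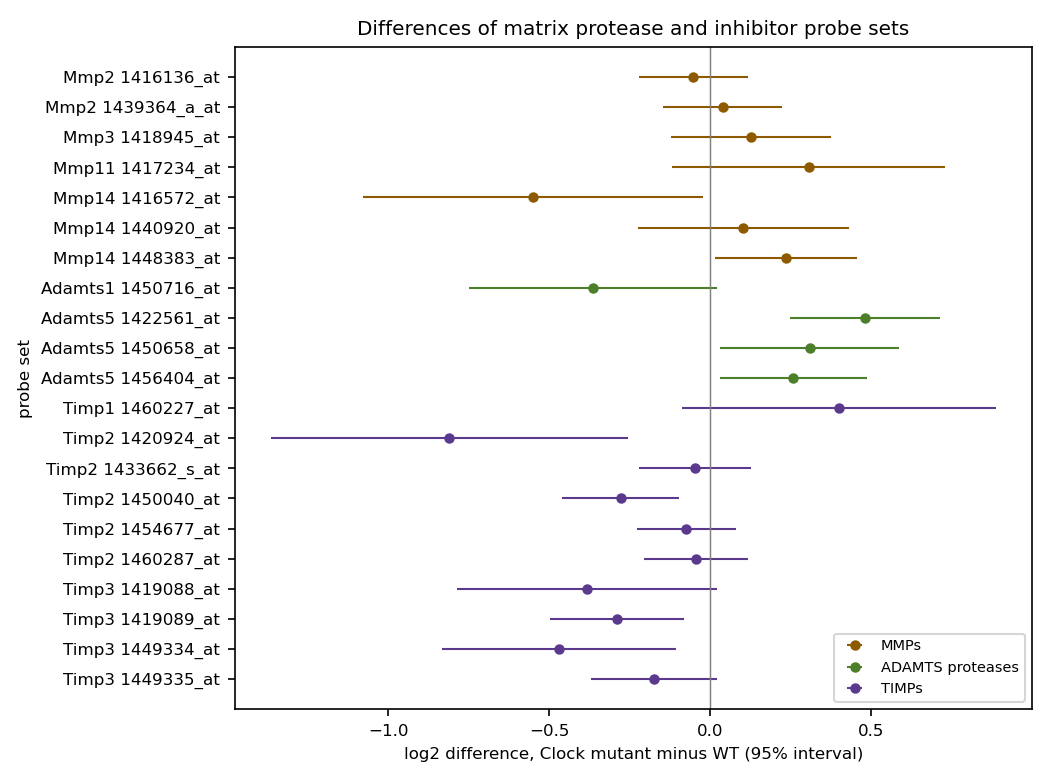
Each point is the log2 difference, *Clock* mutant minus WT (horizontal axis), of 1 of the 21 tested probe sets (vertical axis), with its 95% interval from limma; brown marks MMPs, green ADAMTS proteases and purple TIMPs. The 3 *Adamts5* points lie right of 0, at 0.26 to 0.48, and the *Timp3* and *Timp2* points lie left of 0, at -0.81 to -0.04.

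*Adamts5* (Entrez 23794) gave the most regular pattern. Its probe set 1422561_at read 2330 and 2097 in the mutant mice, against 1441, 1602 and 1724 in the WT mice. Both mutant mice lay above every WT mouse. The means were 2214 ± 165 (SD, n = 2) and 1589 ± 142 (SD, n = 3), a 1.39-fold difference or 0.48 on the log2 scale (SE 0.10, 95% interval 0.25 to 0.71). The adjusted p was 0.197, so the difference missed the threshold. Over the 14 alternatives it stayed between 0.40 and 0.57, with adjusted p between 0.0869 and 0.661.

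The other *Adamts5* probe sets gave the same order of the genotypes. At 1456404_at, intensities were 1673 and 1751 in *Clock* mutant and 1351, 1371 and 1584 in WT skin, a difference of 0.26 (SE 0.10, adjusted p = 0.417). At 1450658_at they were 619.6 and 620.1 against 457, 501 and 548, a difference of 0.31 (SE 0.12, adjusted p = 0.430). The genotypes again did not overlap at either, and WT replicate 3 was the highest WT array at all 3 probe sets. 1422561_at and 1450658_at were designed from the same sequence record, 1456404_at from another. Without *Clock* mutant replicate 1, so that only female mice remained, the differences were 0.40, 0.29 and 0.31 at 1422561_at, 1456404_at and 1450658_at (adjusted p = 0.630, 0.765 and 0.815).

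*Adamts1* (Entrez 11504), which cuts versican and aggrecan, had the opposite sign at its only probe set, 1450716_at. Intensities were 1190 and 1234 in *Clock* mutant skin and 1189, 1856 and 1717 in WT skin. The mutant mice lay close together, and WT replicate 1 was as low as they were, so that the genotypes overlapped. The log2 difference was -0.36 (SE 0.17, 95% interval -0.75 to 0.02, adjusted p = 0.480), and -0.56 without WT replicate 1 (adjusted p = 0.160).

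**Figure D2:**
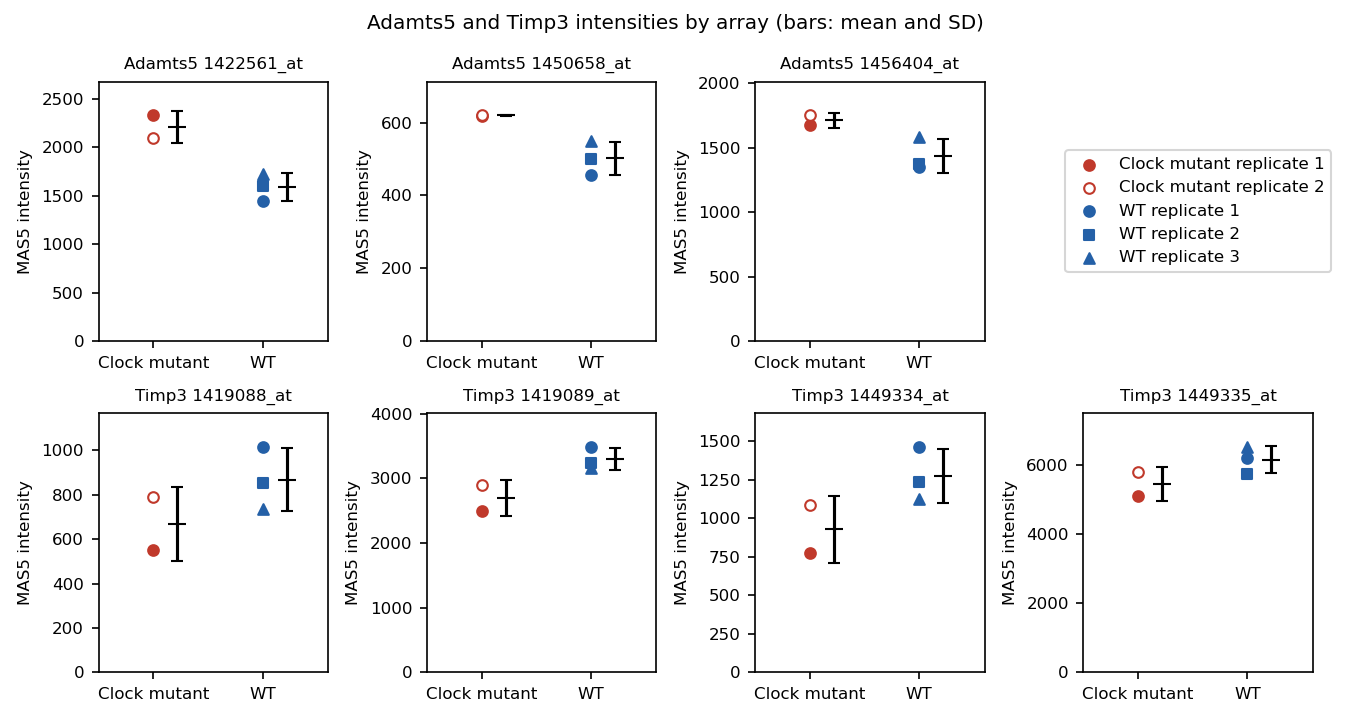
MAS5 intensity (vertical axes, from 0) of the tested *Adamts5* and *Timp3* probe sets in *Clock* mutant and WT skin (horizontal axes); mutant mice are in red (replicate 1 filled), WT mice in blue (circle, square and triangle for replicates 1, 2 and 3), and black bars are group means with SD (n = 2 and n = 3). Both mutant points lie above all WT points at the 3 *Adamts5* probe sets, and below all WT points at *Timp3* 1419089_at and 1449334_at.

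*Timp3* (Entrez 21859) had lower intensities in *Clock* mutant skin at all 4 probe sets, which were designed from the same sequence record. At 1419089_at, the mutant mice read 2500 and 2900, against 3488, 3234 and 3163 in the WT mice. Both mutant mice lay below every WT mouse, and *Clock* mutant replicate 1 was the lowest. The means were 2700 ± 282 (SD, n = 2) and 3295 ± 171 (SD, n = 3), a log2 difference of -0.29 (SE 0.09, 95% interval -0.50 to -0.08, adjusted p = 0.354).

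At 1449334_at, intensities were 773 and 1083 in *Clock* mutant and 1463, 1237 and 1123 in WT skin, a difference of -0.47 (SE 0.16, adjusted p = 0.375). The genotypes did not overlap there, but WT replicate 3 lay only slightly above *Clock* mutant replicate 2. They did overlap at 1419088_at, with 553 and 789 against 1016, 855 and 734 (-0.38, SE 0.18, adjusted p = 0.479). They overlapped at 1449335_at too, with 5101 and 5780 against 6187, 5719 and 6510 (-0.18, SE 0.09, adjusted p = 0.501). *Clock* mutant replicate 1 was the lowest array at all 4 probe sets. Without it the 4 differences were all negative and smaller, at -0.13, -0.18, -0.23 and -0.08 for 1419088_at, 1419089_at, 1449334_at and 1449335_at (adjusted p = 0.843 to 0.947). That array, from the male mouse, also had the control ratio of 54.1 and the follicle gene sum of 7503. The part of sex or of either measure in the *Timp3* values was not tested.

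*Timp2* (Entrez 21858), the inhibitor that also serves MMP2 activation, differed strongly between its probe sets. At 1420924_at, the mutant mice read 764 and 1461, against 2059, 2053 and 1503 in the WT mice. *Clock* mutant replicate 1 stood far below the rest, and *Clock* mutant replicate 2 lay next to WT replicate 3. Mutant minus WT came to -0.81 (SE 0.24, 95% interval -1.36 to -0.26, adjusted p = 0.334). It was -1.28 without *Clock* mutant replicate 2 (adjusted p = 0.0287), and -0.34 without *Clock* mutant replicate 1 (adjusted p = 0.826).

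At *Timp2* 1450040_at, intensities were 2410 and 2575 in *Clock* mutant and 3023, 2907 and 3140 in WT skin. Here the mutant mice lay together, below all WT mice, with means of 2493 ± 117 (SD, n = 2) and 3023 ± 116 (SD, n = 3). The log2 difference was -0.28 (SE 0.08, 95% interval -0.46 to -0.10, adjusted p = 0.310), and -0.23 without *Clock* mutant replicate 1 (adjusted p = 0.752). The remaining 3 probe sets, 1433662_s_at, 1454677_at and 1460287_at, differed by -0.05, -0.07 and -0.04, with overlapping genotypes and adjusted p of 0.717 to 0.857. Their 95% intervals lay within -0.23 to 0.13. After median centring of the arrays these 3 were slightly positive, at 0.04, 0.01 and 0.04. 3 *Timp2* probe sets, 1420924_at, 1450040_at and 1460287_at, were designed from the same sequence record and yet differed by -0.81, -0.28 and -0.04.

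*Timp1* (Entrez 21857), an inducible inhibitor on the X chromosome, was the only inhibitor with a positive difference. It read 483 and 285 in the mutant mice, against 287, 259 and 299.9 in the WT mice. Only *Clock* mutant replicate 1, the male, was high, and the other mutant lay within the WT range. The fitted difference was 0.40 (SE 0.22, 95% interval -0.09 to 0.89, adjusted p = 0.534), and 0.02 without *Clock* mutant replicate 1. The sex of that mouse and the genotype cannot be told apart on that array. It also had the control ratio of 54.1 and the follicle gene sum of 7503, and their part in the *Timp1* values was not tested.

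**Figure D3:**
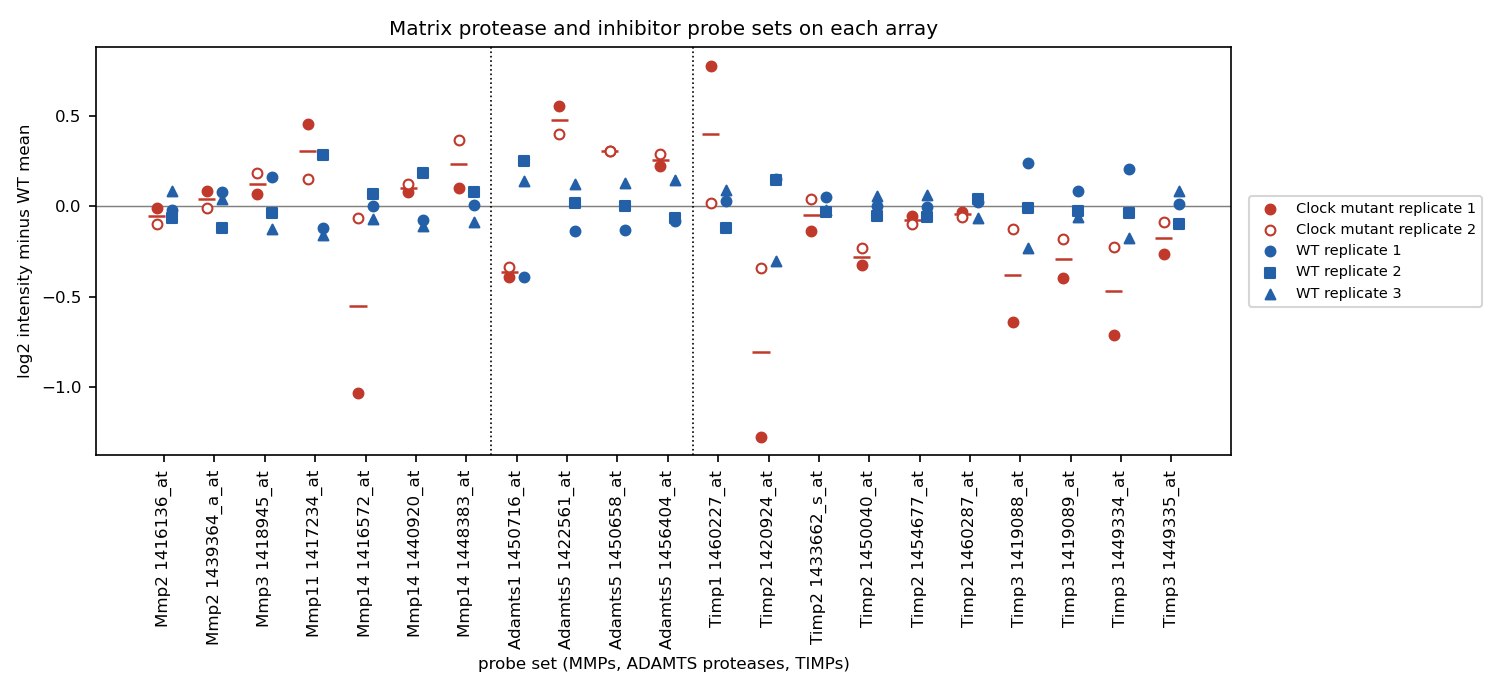
Deviation of each array from the WT mean on the log2 scale (vertical axis) for the 21 tested probe sets (horizontal axis; dotted lines separate MMPs, ADAMTS proteases and TIMPs); mutant mice are in red (replicate 1 filled, bar at their mean) and WT mice in blue. *Clock* mutant replicate 1 lies far from all other arrays at *Mmp14* 1416572_at, *Timp1* 1460227_at and *Timp2* 1420924_at, while both mutant arrays lie together at *Adamts5* and *Adamts1*.

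*Mmp14* (Entrez 17387), which encodes the membrane-bound MMP, had probe sets of opposite sign. At 1448383_at, the mutant mice read 3655 and 4387, against 3423, 3588 and 3202 in the WT mice. Both mutant mice lay above every WT mouse, replicate 1 only slightly. The log2 difference was 0.24 (SE 0.10, 95% interval 0.02 to 0.46, adjusted p = 0.441), and 0.37 without *Clock* mutant replicate 1 (adjusted p = 0.534).

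At *Mmp14* 1416572_at, intensities were 417 and 818 in *Clock* mutant and 857, 898 and 814 in WT skin. *Clock* mutant replicate 1 lay far below all other arrays, and *Clock* mutant replicate 2 lay within the WT range. The log2 difference was -0.55 (SE 0.23, 95% interval -1.08 to -0.02, adjusted p = 0.450). It was -1.04 without *Clock* mutant replicate 2 (adjusted p = 0.0211), and -0.06 without *Clock* mutant replicate 1 (adjusted p = 0.962). The third probe set, 1440920_at, had 359 and 370.5 against 323, 386 and 314, a difference of 0.10 (SE 0.14, adjusted p = 0.828). 1416572_at and 1448383_at were designed from the same sequence record. With the mean of the 3 probe sets *Mmp14* was at -0.07 (adjusted p = 0.879). *Mmp14* 1416572_at and *Timp2* 1420924_at were lowest on the array of the male mouse, with the control ratio of 54.1 and the follicle gene sum of 7503. The part of sex or of either measure in these values was not tested.

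**Figure D4:**
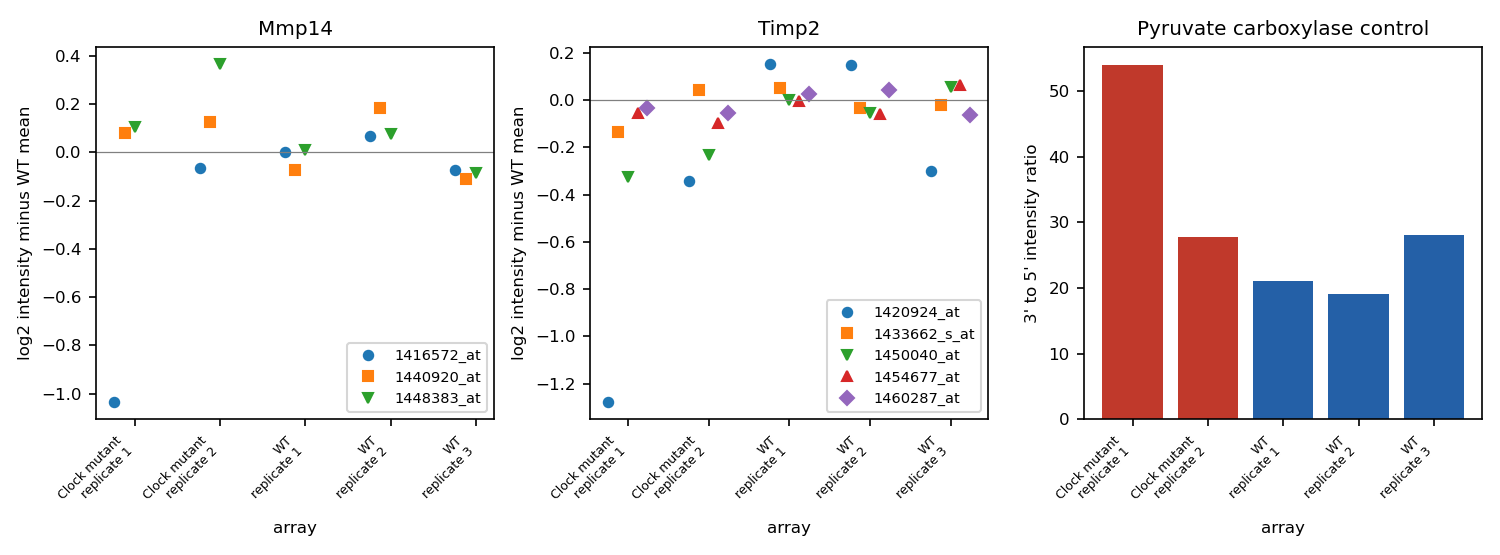
The left and middle panels plot the log2 intensity minus the WT mean (vertical axes) of the 3 *Mmp14* and 5 tested *Timp2* probe sets on each array (horizontal axes), and the right panel plots the 3' to 5' intensity ratio of the pyruvate carboxylase control (vertical axis, from 0) on the same arrays, red for *Clock* mutant and blue for WT. On *Clock* mutant replicate 1 the ratio was 54.1, and *Mmp14* 1416572_at and *Timp2* 1420924_at lay at -1.04 and -1.28 while the other probe sets of these genes lay between -0.33 and 0.10.

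*Mmp2* (Entrez 17390), a gelatinase that MMP14 activates, differed little. At 1416136_at, intensities were 7435 and 6994 in *Clock* mutant and 7377, 7148 and 7938 in WT skin, and at 1439364_a_at 6752 and 6334 against 6712, 5856 and 6558. The genotypes overlapped at both. The log2 differences were -0.05 (SE 0.07, 95% interval -0.22 to 0.12, adjusted p = 0.828) and 0.04 (SE 0.08, 95% interval -0.15 to 0.22, adjusted p = 0.892). Both signs changed under some alternatives, at 1416136_at after median centring and at 1439364_a_at when an array was left out.

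*Mmp3* (Entrez 17392), stromelysin-1, which cuts proteoglycans and activates other MMPs, had intensities of 1299 and 1410.5 in *Clock* mutant and 1386, 1210 and 1138 in WT skin. WT replicate 1 lay between the mutant mice. It differed by 0.13 (SE 0.11, 95% interval -0.12 to 0.37, adjusted p = 0.703). *Mmp11* (Entrez 17385), stromelysin-3, an MMP of stromal cells that is already cut to its active form inside the cell, had intensities of 336 and 272 against 225, 297 and 219. WT replicate 2 lay between the mutant mice, and the difference was 0.31 (SE 0.19, 95% interval -0.12 to 0.73, adjusted p = 0.578).

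Proteases and their inhibitors were also set against each other within each array, as differences of log2 deviations from the WT mean, with the mean of the tested probe sets of each gene. The pairs were chosen after the values had been seen, so that no test was made. *Adamts5* minus *Timp3*, the protease and its inhibitor, was 0.87 and 0.49 in the mutant mice, against -0.25, 0.03 and 0.23 in the WT mice. The genotypes did not overlap, and this followed from the gene means alone. For *Adamts5* these were 0.36 and 0.33 in the mutant mice, with a highest WT value of 0.13. For *Timp3* they were -0.50 and -0.16, with a lowest WT value of -0.09. The non-overlap of the pair therefore adds nothing to that of the genes. *Mmp14* minus *Timp2* was 0.08 and 0.28 against -0.07, 0.10 and -0.04, and *Mmp2* minus *Timp2* was 0.40 and 0.08 against -0.02, -0.10 and 0.12, and for these pairs the genotypes overlapped.

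The start site regions of the members were searched for elements bound by clock factors and for common promoter elements. Sequences of 250 bases before to 50 after the start were from RefSeq (GRCm38.p6) for 8 of the 10 genes, all but *Mmp2* and *Adamts5*. On both strands, the E-box CACGTG, bound by CLOCK and BMAL1, matched in 0 of 8 (7.15% of all 32851 such windows), the E'-box CACGTT in 0 (4.68%), and the D-box TTANGTAA in 0 (2.32%). The AP-1 element TGANTCA, bound by FOS and JUN proteins, matched in 1 (7.81%), the TATA box TATAAA in 2 (13.6%) and the GC box GGGCGG in 7 (35.7%). No matches overlapped. These are matches of letters in a short window and say nothing of distant elements. The promoters of both TIMPs with negative differences are printed with those of *Mmp3* and *Adamts1*, which hold the TATA matches. GC box matches alone were also found at the proteases *Mmp11*, *Mmp14* and *Adamts2* and at *Timp1*. The printed choice therefore shows no split between inhibitors and proteases. Capitals mark the matches. *Timp3* (chr10:86300162-86300461, plus strand) holds 2 GC boxes on the reverse strand, *Timp2* (chr11:118355362-118355661, minus strand) holds 1, *Mmp3* (chr9:7445572-7445871, plus strand) holds the AP-1 match at -46 and the TATA match at -7, and *Adamts1* (chr16:85803064-85803363, minus strand) holds a TATA match at -32 and 3 GC boxes, with positions counted from the annotated start site to the first base of the match.
Timp3: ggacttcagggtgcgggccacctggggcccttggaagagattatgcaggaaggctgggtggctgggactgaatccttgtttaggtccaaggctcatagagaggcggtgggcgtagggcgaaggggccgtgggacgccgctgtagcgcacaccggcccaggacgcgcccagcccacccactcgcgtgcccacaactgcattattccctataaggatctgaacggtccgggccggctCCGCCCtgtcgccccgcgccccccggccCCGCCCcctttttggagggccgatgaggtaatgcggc
Timp2: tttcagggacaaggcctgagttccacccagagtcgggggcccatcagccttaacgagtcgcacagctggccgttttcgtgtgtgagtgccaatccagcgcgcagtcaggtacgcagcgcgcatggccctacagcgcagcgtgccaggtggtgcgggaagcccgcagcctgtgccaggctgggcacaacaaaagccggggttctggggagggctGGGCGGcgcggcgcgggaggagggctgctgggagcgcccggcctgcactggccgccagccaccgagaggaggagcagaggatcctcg
Mmp3: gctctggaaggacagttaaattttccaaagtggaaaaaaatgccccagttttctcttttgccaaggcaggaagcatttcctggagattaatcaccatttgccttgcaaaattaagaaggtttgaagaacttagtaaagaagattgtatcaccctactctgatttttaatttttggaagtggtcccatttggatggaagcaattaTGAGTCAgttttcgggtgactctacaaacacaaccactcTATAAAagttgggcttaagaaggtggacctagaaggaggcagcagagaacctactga
Adamts1: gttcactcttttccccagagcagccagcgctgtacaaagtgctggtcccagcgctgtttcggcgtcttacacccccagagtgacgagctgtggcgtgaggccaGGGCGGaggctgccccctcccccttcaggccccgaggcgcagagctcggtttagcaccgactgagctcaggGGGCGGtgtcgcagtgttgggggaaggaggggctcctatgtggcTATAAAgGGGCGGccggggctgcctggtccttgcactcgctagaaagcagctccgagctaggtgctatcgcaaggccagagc

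Other genes of matrix proteolysis were described from 10 lists, with 108 tested probe sets of 151. The lists were chosen by role but with earlier results of these data known, so that their counts are description and no test. 1 of the 108 passed the adjusted threshold (background 0.0888%), and 16 had an unadjusted p under 0.05 (14.8%, of 10.8% over the array), 9 higher and 7 lower. The median was -0.01. The call was *Eln*, elastin, a substrate of several MMPs. At 1420855_at it had intensities of 11138 and 9907 in *Clock* mutant and 6380, 5632 and 5895 in WT skin (0.82, SE 0.08, adjusted p = 0.0144). The call was lost without *Clock* mutant replicate 1, WT replicate 2 or WT replicate 3, and the other *Eln* probe set differed by 0.22 (adjusted p = 0.619).

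Among the other 14 measured MMPs, 10 probe sets were tested. *Mmp9*, a gelatinase of keratinocytes and leukocytes, was higher in both mutant mice than in every WT mouse at both of its probe sets, with 383 and 380.0 against 236, 260 and 299 at 1416298_at (0.53, SE 0.15, adjusted p = 0.310) and 414 and 336 against 273, 254 and 282 at 1448291_at (0.47, SE 0.15, adjusted p = 0.362). Neutrophils are a leukocyte source of *Mmp9*, and 3 of 4 neutrophil genes had a probe set, all but *Ly6g*. Their summed intensities were 232 and 328 in *Clock* mutant and 243 to 432 in WT skin. *Elane* was in the sum but under the filter, and no gene of the list passed the adjusted threshold. The part of neutrophils in the *Mmp9* values was not tested. Among 11 tested probe sets of other ADAMTS proteases, *Adamts10*, which binds fibrillin, had the smallest p, with 438 and 540 against 728, 647 and 580 (-0.42, SE 0.14, adjusted p = 0.375).

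ADAMTS-like proteins, which resemble ADAMTS enzymes but lack the protease domain, were negative at 8 of 9 tested probe sets (median -0.18), where 14451 of 27022 were negative over the array. None of the 9 passed the adjusted threshold in limma, and 2 were lower at an unadjusted p under 0.05 (background 6.71%). *Adamtsl4*, a fibrillin-binding member, had 2059 and 2482 against 2834, 2752 and 2975 (-0.34, SE 0.10, adjusted p = 0.315). *Reck*, a membrane-anchored inhibitor of MMPs, lay below all WT mice too, with 2907 and 3445 against 3844, 3839 and 3938 (-0.29, SE 0.09, adjusted p = 0.339), and *Clock* mutant replicate 1 was again the lowest array. *Lrp1*, the receptor that takes up proteases and their inhibitor complexes, had 4062 and 4394 against 4851, 4839 and 4887 at 1448655_at (-0.20, SE 0.07, adjusted p = 0.384), while its other probe set was at 0.08.

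ADAM sheddases were negative at 11 of 16 tested probe sets, where 14451 of 27022 were negative over the array. Several of these were of *Adam15* or *Adam10*, so they are not separate observations. Only 1 was lower at an unadjusted p under 0.05 (background 6.71%). *Adam15* had the smallest p, at 1425170_a_at, with 58.1 and 85.5 against 160, 141 and 111 (-0.95, SE 0.26, adjusted p = 0.307), near the filter of 56.7. Its other 3 probe sets were at -0.38 to -0.19. Of the lysosomal group, the protease *Ctsb* was at 0.31 at 1417491_at (adjusted p = 0.312) but at -0.15, 0.15 and -0.03 at its other tested probe sets, and the cathepsin inhibitor *Cstb* was at 0.33 and 0.05. In the plasminogen system the smallest p was that of *Plaur*, the urokinase receptor (0.19, adjusted p = 0.685), and among proprotein convertases, which activate ADAMTS enzymes and MMP14, that of *Pcsk5* (0.23, adjusted p = 0.728, with its other tested probe sets at -0.10 and -0.01).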

How the data were processed

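Total RNA from dorsal skin of 2 *Clock* mutant and 3 WT mice was hybridised, 1 Affymetrix array per mouse. The deposited values were signal intensities on a linear scale, made by the authors with MAS5, which subtracts mismatch signal and scales each array. The MAS5 version is not given in the sources used here. Each array had a 2% trimmed mean of 500.0, and MAS5 values are noisy at low intensity. Scanner files and detection calls were not used here. The number of arrays limits the precision.

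The table held 45101 probe sets, 64 of them controls, which no test used. The platform annotation gave the gene names (34945 probe sets with 1 symbol, 932 with several, 9160 unnamed here), and 34741 matched RefSeq. Intensities under 1 were set to 1, log2 was taken, and probe sets with a mean under the 40th percentile (56.7) were left out. The genotypes were compared over 27022 probe sets with limma 3.58.1 in R 4.3.3 (intensity trend, two-sided, Benjamini-Hochberg adjustment). The limma step was tested on simulated data. The labels call the mice biological replicates.

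Named were every member, and of each further list the genes at an unadjusted p under 0.01 or, where there were none, the gene with the smallest p. The members and lists were chosen with earlier results of these data known. Alternatives changed 1 choice at a time. The arrays were quantile normalized or centred on their medians. The filter was dropped or moved to the 60th percentile, and 32 was added before log2. The test was run without the intensity trend, with a robust prior, as a Cyber-T style test (window 101, prior weight 10), with the replicate number as a block, without each array in turn, and on probe sets averaged per gene.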

Additional observations from a re-analysis of the deposited data

How the results depend on the processing

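No member probe set passed the adjusted threshold under any alternative on all 5 arrays; leaving out an array gave 0 to 2, the 2 being *Mmp14* 1416572_at and *Timp2* 1420924_at without *Clock* mutant replicate 2, a fit of 1 mutant whose spread comes from the WT mice alone. The count at an unadjusted p under 0.05 was 5 without an intensity trend (9.74% over the array) and 4 to 9 when an array was left out (5.81% to 16.9% over the array), lowest without *Clock* mutant replicate 1. Over the array, 24 probe sets passed the adjusted threshold, against 10 with no filter, 75 with the Cyber-T style test and 0 without an intensity trend (2631 at an unadjusted p under 0.05). Leaving out an array gave 0 to 239, with 239 without *Clock* mutant replicate 2 and 0 without WT replicate 2 (1570 at an unadjusted p under 0.05) or WT replicate 3 (2193). The call in the further lists was lost without an intensity trend (0 passed, 12 at an unadjusted p under 0.05), and leaving out an array gave 0 to 1. The cause of these shifts was not tested.

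The median over the member probe sets was 0.041 after median centring, against -0.05, since that step raises the *Clock* mutant arrays. Differences near 0 changed sign: *Mmp2* 1416136_at was at 0.035 and *Timp2* 1433662_s_at, 1454677_at and 1460287_at at 0.041, 0.013 and 0.044 after median centring. When an array was left out, *Mmp2* 1439364_a_at lay between -0.021 and 0.085 and *Timp2* 1433662_s_at between -0.14 and 0.042. *Mmp14* was at -0.070 with the mean of its probe sets, against 0.24 at 1448383_at. The other member probe sets kept their sign under all alternatives. *Adamts5* 1422561_at stayed between 0.40 and 0.57. *Timp2* 1420924_at stayed between -1.28 and -0.34 and 1450040_at between -0.33 and -0.19, and *Timp3* 1419089_at between -0.40 and -0.18. All these fits use the same mice, so they are not separate observations.

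The replicate number was not taken as a pairing, since the labels tie it to no shared litter or day. Deviations of same-numbered mice correlated at 0.008 and 0.099. With 2 mutant mice their deviations mirror each other, so these correlations cannot decide whether mice were paired. With the number as a replicate block, 106 probe sets passed over the array, 0 of them members, and 10 members had an unadjusted p under 0.05 (10.4% over the array).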
